A study of Arabidopsis thaliana with 36 samples.

Results

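The NPF family, also called NRT1/PTR, is a large plant family of membrane carriers, and 10 of its genes were followed here through 36 root samples of Arabidopsis thaliana. The genes were chosen by family name, by a rule that uses no measured value but was written with earlier results of these data known, as 10 probe sets among the 22810 on an Affymetrix array, or 10 of 13286 loci with a probe set of their own. They are GTR2 (NPF2.11), GTR1 (NPF2.10), AT2G26690 (NPF6.2), AT3G21670 (NPF6.4), AT1G59740 (NPF4.3), AT1G72125 (NPF5.13), AT1G68570 (NPF3.1), AT1G33440 (NPF4.4), AT3G25280 (NPF4.2) and AT1G27040 (NPF4.5). The NPF numbers are RefSeq's synonyms. RefSeq lists 27 genes under such numbers, of which 11 have a probe set assigned to that gene alone in the platform annotation. The one left over, AT3G25260 (NPF4.1), had a mean signal of 62.0 and fell below the filter on dim probe sets.

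NPF proteins are mostly proton-coupled symporters, and the family is known for carrying nitrate, small peptides, plant hormones and glucosinolates. A root system that meets nitrate on one side only is known to adjust uptake on both sides, using signals within the root and signals relayed through the shoot. GTR1 and GTR2 import glucosinolates, the sulfur-rich defence compounds of the cabbage order, into cells. NPF6.2 is a low-affinity nitrate transporter described in leaf petioles, and NPF6.4 belongs to the same subfamily. Several NPF4 proteins carry abscisic acid or gibberellin in transport assays, and NPF3.1 carries gibberellin and is described in the root endodermis.

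Plants of the Columbia ecotype had the primary root cut so that a pair of main roots grew out. They were grown with 0.5 mM ammonium succinate, 0.1 mM KNO3 and 3 mM sucrose, and then with 0.5 mM ammonium succinate as nitrogen source. At 12 to 14 days of age they moved to plates divided by a trench, with 0.3 mM sucrose and 5 mM KNO3 or 5 mM KCl on each side. Sp.NO3 is the nitrate side and Sp.KCl the chloride side of a split plate, on which the salts differ between the sides. C.NO3 roots had nitrate on both sides and C.KCl roots had chloride on both sides, called uniform plates here. Each of the 4 treatments was sampled after 2 hours, 8 hours and 2 days, with 3 biological repeats per group and 12 groups in all. The labels do not say whether the Sp.NO3 and Sp.KCl samples that share a replicate number came from the same plants.

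For the chloride samples the labels contradict each other, since titles that read as uniform chloride carry a treatment entry of chloride on a single side, and the reverse. The titles and source names were followed, and exchanging the chloride groups was run as an alternative. Per-array medians of the deposited signals lay between 194 and 222. Replicates of a group correlated at 0.961 to 0.987 over the 15922 probe sets that passed the filter on dim probe sets. Shares of all probe sets given below are of these 15922. The files give no detection calls, so whether a dim probe set was above background is not known. Of 7 root markers and 6 shoot markers, 2 each have a probe set of their own. The root hair genes EXPA7 and EXPA18 had summed signals from 1375 to 3382 over the 36 arrays, and the photosynthesis genes RCA and LHCB4.2 from 215 to 802. No defining marker was at 0, which without detection calls does not show that each was detected. The ratio of 3′ to 5′ signal of 6 pairs of Arabidopsis control probe sets, a measure of RNA length and amplification, is given below as a mean log2 value, the 3′ to 5′ index.

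**Figure D1:**
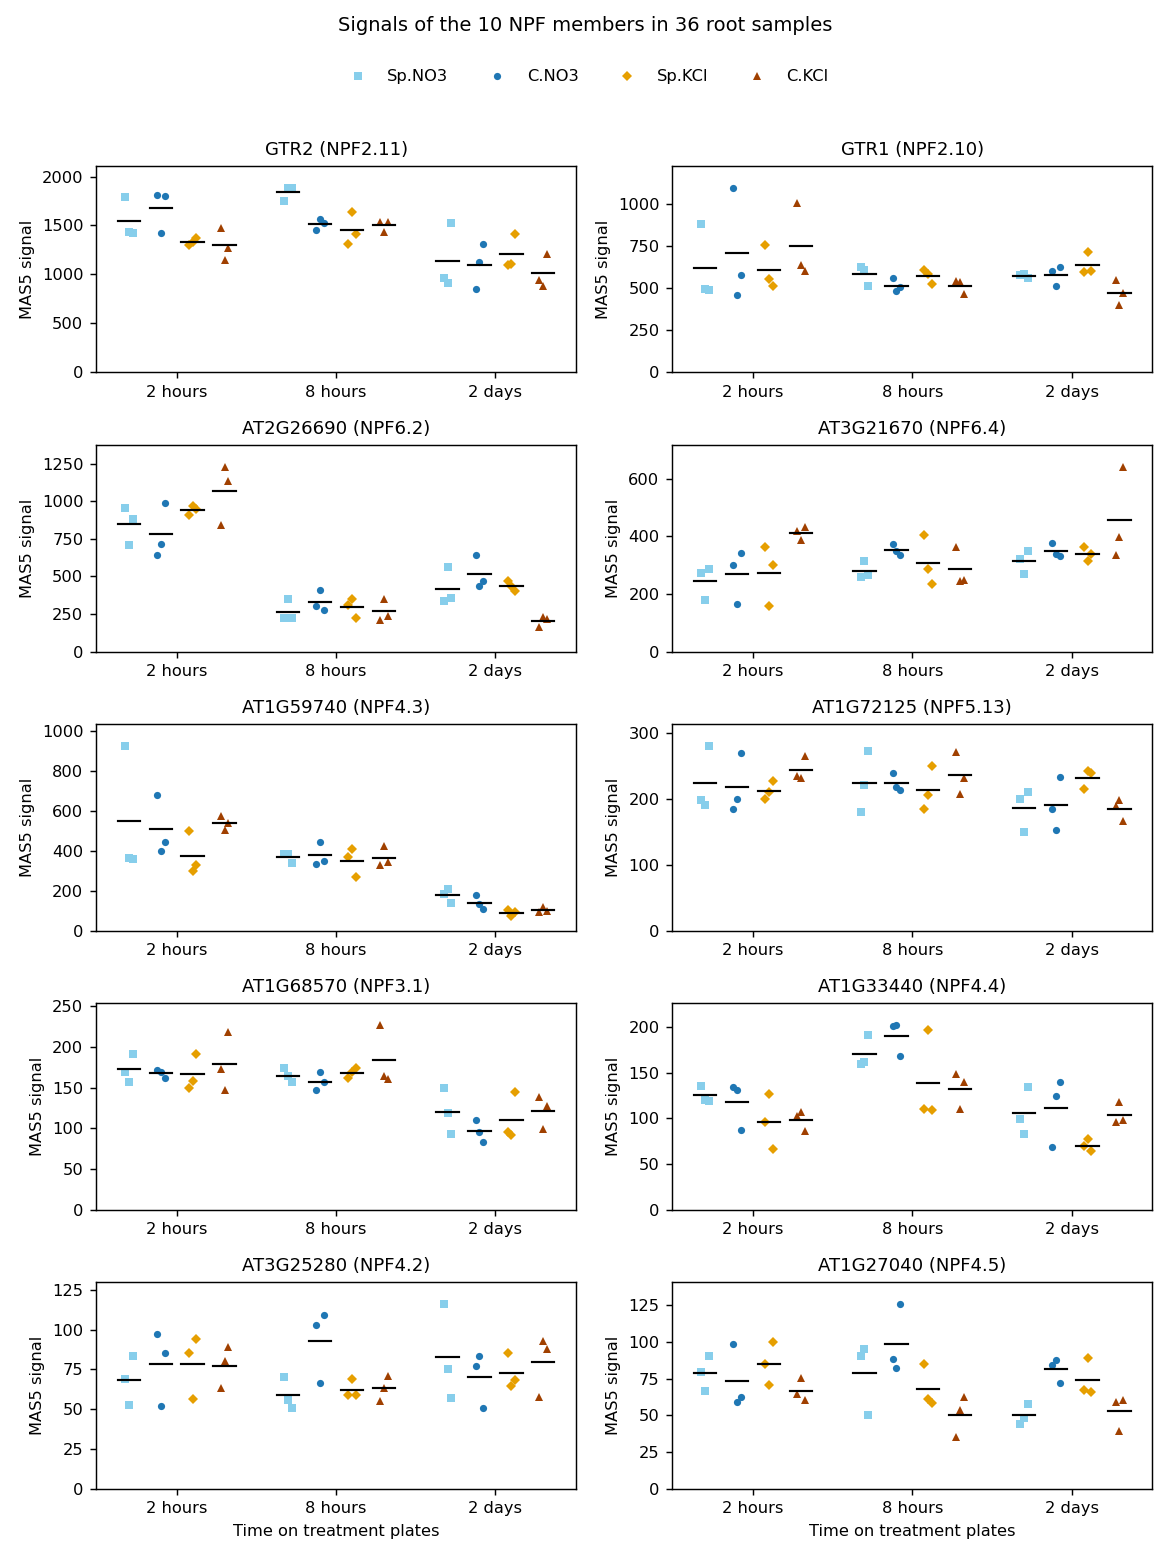
Microarray signal (linear scale) of each of the 10 NPF genes in every sample, by time on the treatment plates. Each point is 1 array, the bars are group means (n = 3), and the symbols mark the 4 treatments. AT2G26690 and AT1G59740 change most across the panels of time, and in AT2G26690 the C.KCl arrays after 2 days lie at 163 to 233, under all other arrays of that time.

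The 10 genes differed in how far their group means spread. AT1G59740 spanned 5.30-fold on the log2(signal + 16) scale, with its highest group mean in C.KCl roots after 2 hours (538) and its lowest in Sp.KCl roots after 2 days (89.2). AT2G26690 spanned 4.92-fold and had both ends in the same treatment, at 1071 in C.KCl roots after 2 hours and 204 in C.KCl roots after 2 days. AT1G33440 spanned 2.39-fold. The other 7 genes spanned 1.30-fold (AT1G72125) to 1.82-fold (GTR2). Fold changes here are on that log2 scale and understate the change of dim probe sets. AT3G25280 and AT1G27040 had mean signals of 73.8 and 71.5 and passed the filter, set at a signal of 68.9, only narrowly.

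Neighbouring groups in these orders were seldom apart by more than their spread. For AT2G26690 the order of group means was the 4 treatments after 2 hours, then C.NO3, Sp.KCl and Sp.NO3 after 2 days, then the 4 treatments after 8 hours, and last C.KCl after 2 days. Only 1 of its 11 steps exceeded the larger SD of the neighbours, the step between C.NO3 roots after 2 days and C.NO3 roots after 2 hours. For AT1G59740 2 of 11 steps did, and for GTR2, AT1G72125 and AT3G25280 none did. The remaining 5 genes had 1 such step each.

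**Figure D2:**
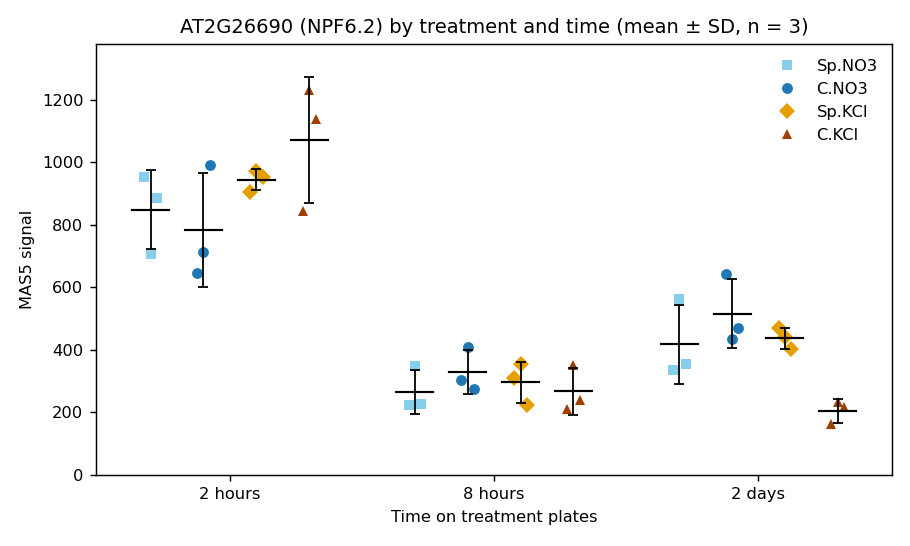
Signal of AT2G26690 (NPF6.2) by treatment and time, with the mean ± SD of 3 arrays per group. All groups lie between 646 and 1231 after 2 hours and between 211 and 410 after 8 hours, and after 2 days C.KCl roots average 204 against 417 to 515 in the other 3 treatments.

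Uniform nitrate against uniform chloride asks which genes differ when the whole root system has nitrate. After 2 days AT2G26690 was 2.40-fold higher in nitrate. Its signals were 641, 435 and 469 in C.NO3 roots, against 163, 233 and 217 in C.KCl roots. Every nitrate array lay above every chloride array. The log2 difference was 1.26 ± 0.21 (SE, n = 3 per group), with an adjusted p of 0.000358 in limma's moderated test over 15922 probe sets. It was the 1 gene of 10 called at an adjusted p under 0.05, where 2.52% of all probe sets were called. In whole roots, fewer cells of a type and less RNA per cell cannot be told apart. With the chloride groups exchanged the difference was 0.21 (adjusted p = 0.845). The summed signal of the 2 shoot markers was 473 to 565 in C.NO3 roots, against 242 to 315 in C.KCl roots, and its part in the result was not tested.

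AT1G27040 also did not overlap between these groups after 2 days, with 84.0, 87.6 and 72.3 in C.NO3 roots, against 58.8, 39.6 and 60.2 in C.KCl roots. Its difference of 0.51 ± 0.22 did not pass (adjusted p = 0.274). Groups without overlap were found for 21.8% of all probe sets in this comparison, so 2 such genes of 10 are near the background. The differences of the other 8 genes ran from −0.32 (AT3G21670) to 0.37 (AT1G59740).

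After 8 hours limma called 0 of the 10 genes, against 0.389% of all probe sets, and 2 of 10 had an unadjusted p under 0.05, against 9.33%. AT1G27040 gave 88.1, 82.3 and 126 in C.NO3 roots, against 35.2, 53.5 and 62.3 in C.KCl roots. The groups were apart, and the difference of 0.79 ± 0.22 had an adjusted p of 0.115. The comparison was also tested without limma's moderation, at the methods' threshold of an unadjusted p under 0.001. That test called AT1G27040 as the 1 member, against 0.722% of all probe sets. It is named the methods' test here for its threshold only. The terms of the methods' three-way test were not tested. AT1G33440 gave 201, 202 and 168 in C.NO3 roots, against 148, 110 and 139 in C.KCl roots, also without overlap (0.48 ± 0.22, adjusted p = 0.498). Groups were apart for 19.5% of all probe sets.

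After 2 hours limma called 0 of the 10 genes, against 2.04% of all probe sets, with 3 at an unadjusted p under 0.05, against 17.5%, and 0 by the methods' test. Arrays with the same replicate number deviated together in this comparison, and with the replicate number as a block 2 members were called, against 7.39% of all probe sets. AT3G21670 was lower in nitrate, with 299, 165 and 340 in C.NO3 roots, against 420, 386 and 433 in C.KCl roots. These were apart, as for 17.5% of all probe sets. Its difference was −0.65 ± 0.25, with an adjusted p of 0.148 and 0.0246 with the block. GTR2 was the other, with 1808, 1427 and 1803 in C.NO3 roots, against 1474, 1149 and 1265 in C.KCl roots. Its groups overlapped, and the difference of 0.37 ± 0.16 had an adjusted p of 0.208 and 0.0248 with the block. The 3′ to 5′ index was 0.769 ± 0.0978 in C.NO3 roots and 1.07 ± 0.105 in C.KCl roots after 2 hours (SD, n = 3 each), and its part in the blocked calls was not tested.

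AT2G26690 stood on the opposite side after 2 hours, with 646, 714 and 991 in C.NO3 roots, against 846, 1231 and 1137 in C.KCl roots (−0.45 ± 0.21, adjusted p = 0.272). The change of its nitrate difference between 2 days and 2 hours was itself tested. On uniform plates it was 1.71 ± 0.30 on the log2 scale (adjusted p = 0.00181), and AT2G26690 was the 1 member called, where 1.89% of all probe sets were. With the chloride groups exchanged it was 0.50 and not called (adjusted p = 0.917). On split plates the same change was 0.06 ± 0.30, and 0 members were called by limma or by the methods' test, against 0.0126% of all probe sets. At an unadjusted p under 0.05 there were 0, against 3.5%.

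Averaged over the 3 times, 1 of the 10 genes differed between uniform nitrate and uniform chloride, against 3.4% of all probe sets. This was AT1G27040, with a difference of 0.46 ± 0.12 (1.38-fold, n = 9 per side, adjusted p = 0.0301). After 2 hours its signals were 98.4, 59.4 and 62.7 in C.NO3 roots, against 64.3, 75.7 and 60.3 in C.KCl roots, and these overlapped. The difference was positive at each time, and 7 of 9 nitrate arrays lay above the mean of the chloride arrays of their time. The call depended on single arrays. Leaving out any 1 of 8 of the 18 arrays ended it, namely replicate 1 of C.NO3 and replicates 1 and 3 of C.KCl after 2 hours, replicate 3 of C.NO3 and replicate 1 of C.KCl after 8 hours, and after 2 days replicate 1 of C.NO3, replicate 2 of C.NO3 or replicate 2 of C.KCl. The adjusted p ranged from 0.0233 to 0.0862 over the 18. It was 0.0532 when only the arrays compared were fitted and 0.954 with the chloride groups exchanged.

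AT2G26690 had an average difference of 0.37 ± 0.12 over the times (adjusted p = 0.0963). With the replicate block the adjusted p was 0.0174, and 8.61% of all probe sets were then called. Same-numbered arrays of uniform plates deviated together at all 3 times, but the block is shared by all treatments. On the chloride side after 2 days the correlations of same-numbered deviations were −0.0502 to 0.0306, so the shared block was not supported there. The average of 0.37 joins differences of −0.45 after 2 hours, 0.30 after 8 hours and 1.26 after 2 days. AT1G68570, the gibberellin carrier, lay below the mean of the chloride arrays of their time on 9 of 9 nitrate arrays, with a difference of −0.18 ± 0.10 (adjusted p = 0.332).

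Sp.NO3 against Sp.KCl compares the sides of split plates. Over the times limma called 0 of the 10 genes, against 1.17% of all probe sets, with 2 at an unadjusted p under 0.05, against 8.13%, and 0 by the methods' test. The 2 were the NPF4 genes AT1G59740 (0.46 ± 0.14, adjusted p = 0.163) and AT1G33440 (0.39 ± 0.13, adjusted p = 0.213). Same-numbered arrays deviated together in every pair after 2 and 8 hours but not after 2 days. With the replicate number as a block 1 member was called, AT1G59740 (adjusted p = 0.00641), against 2.34% of all probe sets. AT1G33440, which was not called, had higher signals than the mean of Sp.KCl roots of the same time on 9 of 9 Sp.NO3 arrays. This count too has no background over all probe sets. Sp.NO3 roots averaged 125, 171 and 105 after 2 hours, 8 hours and 2 days, against 96.1, 138 and 70.1 in Sp.KCl roots.

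After 2 days AT1G59740 gave 181, 208 and 140 in Sp.NO3 roots, against 103, 72.0 and 92.7 in Sp.KCl roots. The sides were apart, and the difference of 0.86 ± 0.25 (1.82-fold) had an adjusted p of 0.114. AT2G26690 showed no such gap, with 335, 561 and 355 in Sp.NO3 roots, against 469, 440 and 403 in Sp.KCl roots (−0.10 ± 0.21, adjusted p = 0.953). In all, 0 members were called after 2 days, against 0.798% of all probe sets, with 2 at an unadjusted p under 0.05, against 8.21%, and 0 by the methods' test. Groups without overlap were found for 5 of the 10 genes, GTR1, AT1G59740, AT1G72125, AT1G33440 and AT1G27040, and for 15.3% of all probe sets. Of these 5, GTR1, AT1G72125 and AT1G27040 had the lower values in Sp.NO3 roots.

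After 8 hours 0 members were called, against 0.245% of all probe sets, with 1 at an unadjusted p under 0.05, against 5.55%, and 0 by the methods' test. That one was GTR2, with 1753, 1886 and 1884 in Sp.NO3 roots, against 1307, 1636 and 1418 in Sp.KCl roots (0.34 ± 0.16, adjusted p = 0.868). These were apart, as for 10.7% of all probe sets. After 2 hours 0 were called, against 0.144%, with 0 at an unadjusted p under 0.05, against 2.11%, and 0 by the methods' test.

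**Figure D3:**
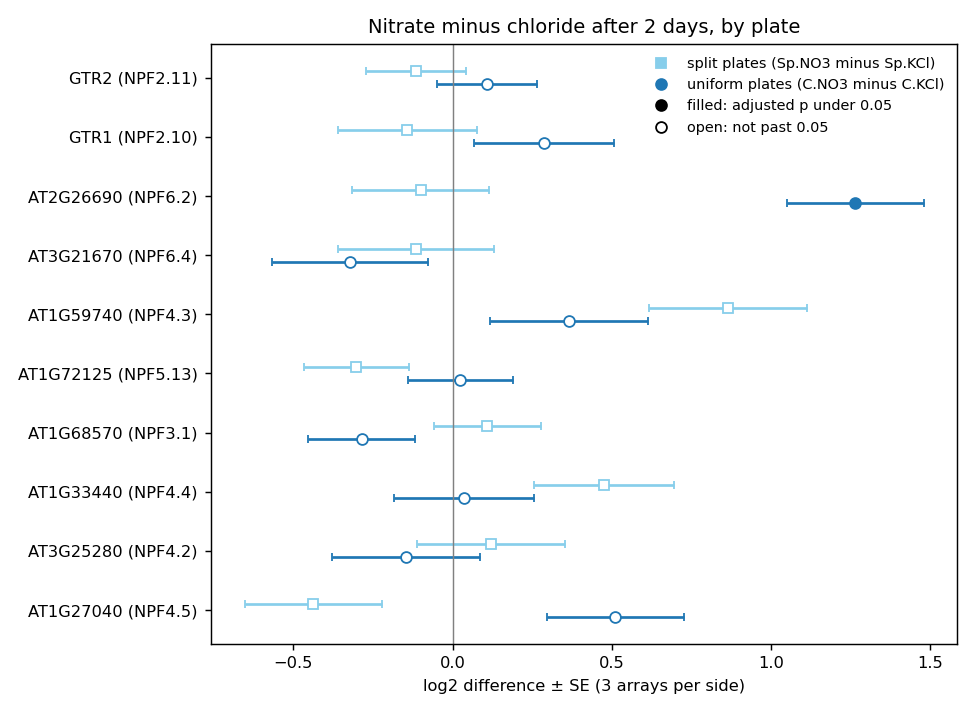
Log2 difference between nitrate and chloride after 2 days for each gene, with bars of ± 1 SE (3 arrays per side). Squares are split plates and circles are uniform plates, and filled symbols passed an adjusted p of 0.05. Only AT2G26690 on uniform plates, at 1.26, is filled.

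Split against uniform plates on the same salt shows how roots differ by what the opposite side receives. On the chloride side after 2 days, AT2G26690 was 2.07-fold higher in roots whose opposite side had nitrate. It gave 469, 440 and 403 in Sp.KCl roots, against 163, 233 and 217 in C.KCl roots. The groups were far from overlapping, and the difference was 1.05 ± 0.21 (adjusted p = 0.00753). It was the 1 member called, where 0.93% of all probe sets were. This comparison shares its C.KCl arrays with that of uniform nitrate and uniform chloride, so the values are not independent of each other. The call ended without replicate 1 of C.KCl and without replicate 1 or 2 of Sp.KCl, and the adjusted p over the 6 arrays left out in turn ranged from 0.0132 to 0.0892. With the chloride groups exchanged the direction turns, by construction. The shoot marker sums were 272 to 371 in Sp.KCl roots and 242 to 315 in C.KCl roots, which overlap.

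The glucosinolate importer GTR1 gave 594, 714 and 604 in Sp.KCl roots after 2 days, against 552, 403 and 469 in C.KCl roots. These did not overlap, and the difference of 0.42 ± 0.22 had an adjusted p of 0.492. In this comparison 5 of 10 members did not overlap between the groups, against 16.9% of all probe sets. They were GTR1, AT2G26690, AT1G72125 and AT1G27040 with the higher values in Sp.KCl roots, and AT1G33440 with the lower. The count for the sides of split plates after 2 days uses the same Sp.KCl arrays, so these counts are not independent. GTR1, AT1G72125, AT1G33440 and AT1G27040 are in both. AT1G33440 gave 70.0, 76.8 and 63.6 in Sp.KCl roots, against 95.7, 118 and 98.4 in C.KCl roots (−0.48 ± 0.22, adjusted p = 0.406).

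At the earlier times on the chloride side 0 members were called, against 0.333% of all probe sets after 2 hours and 0% after 8 hours. At an unadjusted p under 0.05 there were 2 after 2 hours, against 13%, and 0 after 8 hours, against 2.05%, and the methods' test called 0 at both. The 2 were AT3G21670, with 361, 157 and 300 in Sp.KCl roots, against 420, 386 and 433 in C.KCl roots (−0.64 ± 0.25, adjusted p = 0.250), which were apart as for 15.4% of all probe sets, and AT1G59740 (−0.53 ± 0.25, adjusted p = 0.356). Over the times 0 were called, against 0.245%, with 3 at an unadjusted p under 0.05, against 11.8%, and 0 by the methods' test.

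On the nitrate side, Sp.NO3 against C.NO3, limma called 0 members over the times and at each time, and so did the methods' test. The background was 0.00628% over the times and after 2 days, and 0% after 2 hours and after 8 hours. At an unadjusted p under 0.05 there was 1 member after 8 hours (AT3G25280, −0.52 ± 0.23, adjusted p = 0.625) and 1 after 2 days, with 0 after 2 hours and over the times. The backgrounds for this were 7.49% after 8 hours, 3.92% after 2 days, 1.56% after 2 hours and 5.38% over the times. The gene after 2 days was AT1G27040, with 44.4, 48.2 and 57.9 in Sp.NO3 roots, against 84.0, 87.6 and 72.3 in C.NO3 roots. These signals did not overlap, as for 11.7% of all probe sets, and the difference of −0.56 ± 0.22 had an adjusted p of 0.999.

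Whether the nitrate difference depends on the plate was tested as the difference of split plates minus that of uniform plates. After 2 days AT2G26690 had −1.36 ± 0.30 (adjusted p = 0.0350), from −0.10 on split plates and 1.26 on uniform plates. It was the 1 member called, where 0.308% of all probe sets were. The call ended when any 1 of 8 of the 12 arrays was left out, namely replicates 1 and 3 of Sp.NO3, C.NO3 and C.KCl and replicates 1 and 2 of Sp.KCl, with an adjusted p from 0.00877 to 0.138 over the 12. It also ended without a filter on dim probe sets, and with the chloride groups exchanged, when the value was 0.74 (adjusted p = 0.576).

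AT1G27040 came next after 2 days, at −0.95 ± 0.30 (adjusted p = 0.299). Its means were 50.2 in Sp.NO3 roots, 81.3 in C.NO3 roots, 73.9 in Sp.KCl roots and 52.9 in C.KCl roots. Nitrate roots had the lower mean on split plates and the higher one on uniform plates, and the test of this was not passed. The counts called were 0 over the times, after 2 hours and after 8 hours, against 0.113%, 0.0188% and 0.0126% of all probe sets. At an unadjusted p under 0.05 there were 2, 0 and 1 members, against 10.2%, 7.79% and 5.94%, and the methods' test called 0 in each.

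Time on the plates went with larger changes than salt or plate in several of the genes. Between 2 and 8 hours 3 of 10 were called, against 45.1% of all probe sets, so the count is not above the background. AT2G26690 fell 3.05-fold. Its signals were 211 to 410 over the 12 arrays after 8 hours, against 646 to 1231 after 2 hours, without overlap, as for 4.64% of all probe sets. The log2 difference was −1.61 ± 0.11 (adjusted p = 1.49e-13). AT1G59740 fell by 0.36 ± 0.12 (adjusted p = 0.0188), a call the methods' test did not make. AT1G33440 rose by 0.47 ± 0.11 (adjusted p = 0.000845).

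Between 8 hours and 2 days 5 were called, against 62.6% of all probe sets. AT1G59740 fell 2.74-fold, to 72.0 to 208 after 2 days, against 269 to 444 after 8 hours, with no overlap among 24 arrays, as for 14.2% of all probe sets (−1.46 ± 0.12, adjusted p = 1.61e-11). AT1G33440 fell by 0.62 ± 0.11, AT1G68570 by 0.54 ± 0.08 and GTR2 by 0.51 ± 0.08, while AT2G26690 rose by 0.36 ± 0.11 (adjusted p = 0.00433). The rise of AT2G26690 is an average over treatments whose means moved in opposite directions. Changes between times within a treatment were not tested. In C.KCl roots the arrays overlapped, at 211 to 351 after 8 hours and 163 to 233 after 2 days. Its mean signal fell from 267 to 204 in C.KCl roots. It rose from 330 to 515 in C.NO3, from 266 to 417 in Sp.NO3 and from 296 to 437 in Sp.KCl roots. The 3′ to 5′ index was also higher after 2 days, at 1.03 to 1.27, against 0.611 to 1.11 after 8 hours and 0.659 to 1.17 after 2 hours. With the index as a covariate the calls of AT1G59740 and AT1G68570 held and the other 3 ended. GTR2 was then at −0.29 ± 0.14 (adjusted p = 0.123) and AT1G33440 at −0.23 ± 0.19 (adjusted p = 0.393). AT2G26690 was at 0.30 ± 0.20 (adjusted p = 0.288), near its value without the index but with a larger error. The methods' test did not call AT2G26690 here.

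From 2 hours to 2 days 5 were called, against 64% of all probe sets. AT1G59740 was 3.52-fold lower after 2 days (−1.81 ± 0.12, adjusted p = 1.03e-13) and AT2G26690 was 2.38-fold lower (−1.25 ± 0.11, adjusted p = 1.89e-11), each without overlap between the times, as for 12.5% of all probe sets. AT1G68570 fell by 0.56 ± 0.08 and GTR2 by 0.40 ± 0.08, and the GTR2 call ended with the index as a covariate (−0.24 ± 0.12, adjusted p = 0.0978). AT3G21670 rose by 0.31 ± 0.12 (adjusted p = 0.0297). That last call ended with the index, where the difference was 0.29 ± 0.19 (adjusted p = 0.236), in the methods' test, and without any 1 of 5 arrays, which were replicate 2 of C.NO3, Sp.NO3 and Sp.KCl after 2 hours and replicate 3 of Sp.NO3 and of C.KCl after 2 days, with an adjusted p from 0.00958 to 0.0839 over the 24 left out in turn. The root hair markers moved with time too, with a median summed signal of 2140 after 2 hours, 1560 after 8 hours and 2864 after 2 days. Their part in these results was not tested.

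**Figure D4:**
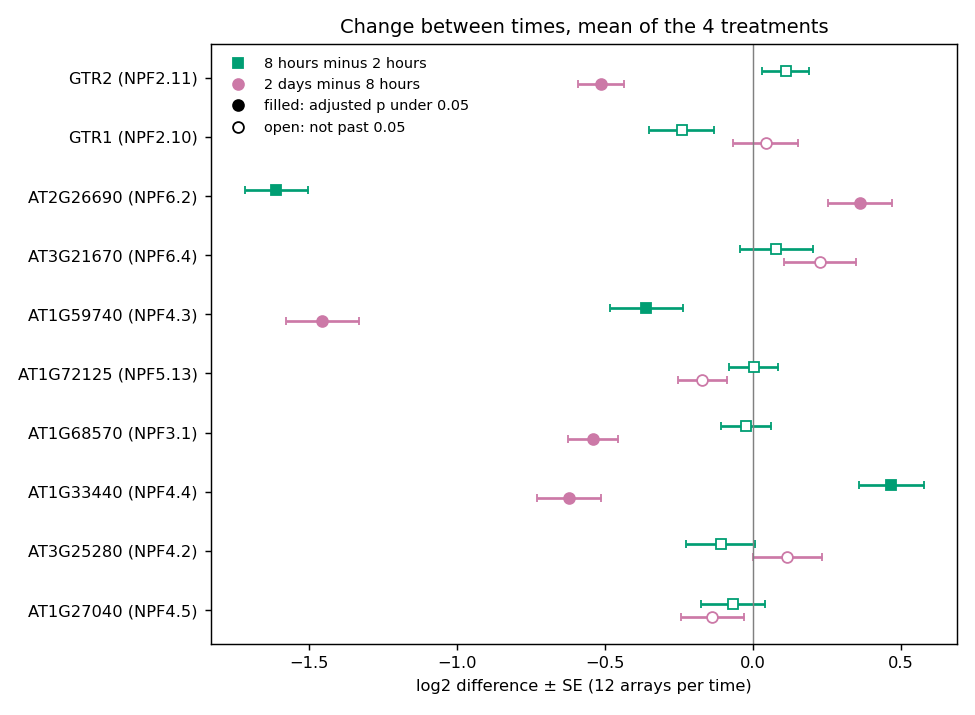
Log2 difference between times for each gene, averaged over the 4 treatments, with bars of ± 1 SE (12 arrays per time). Squares are 8 hours minus 2 hours and circles are 2 days minus 8 hours, and filled symbols passed an adjusted p of 0.05. In the early interval AT2G26690 fell by 1.61, and in the late one AT1G59740 fell by 1.46.

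After 2 hours replicate 1 stood high in 2 genes. For GTR1 it was the highest of its group in all 4 treatments after 2 hours, at 880 in Sp.NO3, 1098 in C.NO3, 758 in Sp.KCl and 1009 in C.KCl roots, with the other replicates at 460 to 636. For AT1G59740 it was likewise the highest, at 925, 680, 499 and 573 in the same order, with the other replicates at 299 to 538. Over the 12 group means, AT1G59740 and AT1G68570 had a Pearson r of 0.91, GTR1 and AT2G26690 of 0.80, GTR2 and AT1G59740 of 0.78, and GTR2 and AT3G21670 of −0.66. GTR1 and GTR2, which share a substrate, had an r of 0.20. These are descriptions, since all genes share the same arrays and the same differences between times. The probe sets whose group means were most like those of AT1G27040 were AT3G07200 (r = 0.83) and AT3G53690 (r = 0.81), among 8791 probe sets compared over the 12 groups.

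The wider family was counted from a list of 43 further loci, of which 24 have a probe set of their own and 15 passed the filter. After 2 days on uniform plates 2 of these 15 were called higher in nitrate, AT1G72140 (0.91 ± 0.22, adjusted p = 0.0191) and AT1G22550 (0.47 ± 0.09, adjusted p = 0.00181), and 0 lower, where 1.31% of all probe sets were higher. A positive difference was found for 13 of these 15, with a median of 0.32, and for 7 of the 10 genes above, with a median of 0.07, against a median of 0.01 over all probe sets. The share of positive differences over all probe sets was not counted. All these differences come from the same C.NO3 and C.KCl arrays, so the signs are not independent and were not tested as a set. On split plates after 2 days 0 of the 25 were called, against 0.798% of all probe sets. The medians there were −0.04 in the 15 and −0.11 in the 10. On the chloride side after 2 days AT3G45710 (0.59 ± 0.13, adjusted p = 0.0116) and AT1G22550 (0.38 ± 0.09, adjusted p = 0.0301) were higher in Sp.KCl than in C.KCl roots, where 0.553% of all probe sets were.

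Over the times 1 of the 15 was higher in uniform nitrate, AT3G45700 (0.35 ± 0.08, adjusted p = 0.0101), against 1.6% of all probe sets, and 1 on the nitrate side of split plates, AT3G01350 (0.30 ± 0.08, adjusted p = 0.0489), against 0.848%. Between 2 hours and 2 days 2 of the 15 rose and 8 fell, against 32.4% and 31.6% of all probe sets. The lowest differences among them were those of AT3G45680, which fell by 2.26 ± 0.11 on the log2 scale (adjusted p = 3.33e-17), and AT1G72140, which fell by 2.21 ± 0.11 (adjusted p = 8.51e-17).

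Related pathways were thinly covered by probe sets of 1 gene. Of 31 genes of glucosinolate synthesis, whose products GTR1 and GTR2 carry, 4 were tested. By salt or plate 0 of the 4 were called in any comparison here, where 0% to 3.4% of all probe sets were. The count is thus near the background. By time, UGT74B1, which adds a glucose to the glucosinolate precursor, fell by 0.73 ± 0.06 between 2 hours and 2 days (adjusted p = 1.74e-11), and GSTU20 rose by 0.98 ± 0.12 (adjusted p = 1.21e-08). BCAT4, an aminotransferase of the methionine-derived branch, fell by 0.60 ± 0.12 between 2 and 8 hours (adjusted p = 0.000188) and rose by 0.46 ± 0.12 between 8 hours and 2 days (adjusted p = 0.00182). Its difference between 2 days and 2 hours was −0.14 ± 0.12 (adjusted p = 0.313). Between 8 hours and 2 days 3 of the 4 rose and 1 fell, against 32.7% and 29.9% of all probe sets. AT2G31790 rose by 0.35 ± 0.11 between 2 hours and 2 days (adjusted p = 0.00528). Of 18 genes of nitrate and ammonium assimilation and its reductant supply 2 were tested, the 6-phosphogluconate dehydrogenase genes AT1G64190 and AT5G41670. Both were higher in Sp.NO3 than in Sp.KCl roots over the times, by 0.29 ± 0.06 (adjusted p = 0.00276) and 0.37 ± 0.08 (adjusted p = 0.00831). On uniform plates their differences over the times were 0.16 ± 0.06 (adjusted p = 0.120) and −0.05 ± 0.08 (adjusted p = 0.787), neither called. The test between the plates over the times was not passed by either (adjusted p = 0.609 and 0.159). After 2 days on uniform plates AT5G41670 was at −0.46 ± 0.14 (adjusted p = 0.0739) and AT1G64190 at 0.04 ± 0.10 (adjusted p = 0.942). After 2 days AT5G41670 differed between Sp.KCl and C.KCl roots in the direction opposite to AT2G26690, at −0.69 ± 0.14 (adjusted p = 0.00545). Of 18 other nitrate transporters and channels only AT1G12940 (NRT2.5) has a probe set of its own, and at a mean signal of 67.9 it was not tested. The 5 ammonium transporters listed have none. In these lists a probe set of its own means exactly 1 that the annotation assigns to that gene alone. The annotation gives no gene for 8794 of the 22810 probe sets. A listed gene without one is therefore not shown to be absent from the array.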

How the data were processed

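Total RNA of 36 root samples was hybridised to Affymetrix arrays. The authors deposited linear MAS5 signal intensities, per the submitters' processing notes (version not given), and each array has a trimmed mean (2% at each end) of 500. After 64 control probe sets were left out, log2(signal + 16) was taken and probe sets whose mean log2 value lay below the 30th percentile were dropped, which left 15922 of 22746, all 10 members among them. limma 3.58.1 in R 4.3.3 fitted the 12 group means to all 36 arrays (24 residual degrees of freedom, moderated with an intensity trend). Tests were two-sided in 25 comparisons, each adjusted by Benjamini-Hochberg over the 15922, with a threshold of 0.05. Gene names come from the platform annotation (13513 probe sets with 1 gene, 503 with several, 8794 with none) and RefSeq, where 13436 of the 13513 matched a locus. No slide or scan batch is given in the sources used here, and cross-hybridisation between related members was not tested.

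The members and lists were chosen with earlier results of these data known. All 10 members were named in every comparison. From each list, up to 4 called genes and up to 2 others were named, and for a member called over the times in a comparison of salt or plate, the 2 probe sets most correlated over the group means. AT1G72140, AT1G22550, AT3G45710 and AT3G45680 fall outside this rule and were named after their values were seen. The lists were the wider NPF family, other nitrate transporters and channels, nitrate and ammonium assimilation, ammonium transporters, glucosinolate synthesis, and root and shoot markers.

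Replicate numbers are shared between groups, and the correlation of same-numbered deviations from the group means was over 0.1 in every pair for uniform nitrate and chloride at all 3 times (0.115 to 0.432), for the sides of split plates after 2 and 8 hours (0.269 to 0.673), for the nitrate side after 2 hours (0.384 to 0.540) and for the chloride side after 2 and 8 hours (0.160 to 0.471). Elsewhere the lowest was between −0.0502 and 0.0856, so the numbers were not taken as pairs there. On simulated data for uniform nitrate against chloride after 2 days, with 15922 probe sets, 92% of 100 changes of 1 log2 unit and 100% of 100 changes of 2 were recovered with 4 false calls. The alternatives were pseudocounts of 1 and 64, no filter, a filter at the median, and quantile normalization. Others were the replicate block within time (shared by all 4 treatments) and the methods' test (each comparison unmoderated, not the terms of the three-way ANOVA). The rest were no intensity trend, exchanged chloride groups, the 3′ to 5′ index as covariate, only the arrays compared, no 2 hour arrays, and each array left out in turn. The number of arrays limits the precision.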

Additional observations from a re-analysis of the deposited data

Results flagged for a closer look

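AT2G26690 (NPF6.2) drew attention in both results because its nitrate difference was not the same in different settings, by a test of the difference itself. After 2 days the difference between nitrate and chloride on split plates minus that on uniform plates was −1.36 on the log2 scale. On uniform plates the difference after 2 days minus that after 2 hours was 1.71. Both rest on the 3 C.KCl arrays after 2 days (163, 233 and 217). Both lose their call when the chloride groups are exchanged.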

How the results depend on the processing

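Counts are of the 10 genes called. The share over all probe sets is given below for the block only, so the other counts are not set against it. With the replicate block, 2 were called on uniform plates over the times and 2 after 2 hours, against 1 and 0 without it. Same-numbered arrays were taken as pairs in both of these. The block is shared by all treatments, however, and the chloride side after 2 days was not taken as paired. Where the pairing did not hold at every time, the block gave 1 on split plates over the times (AT1G59740) and 1 after 2 days (AT1G59740, adjusted p = 0.00339), and 2 on the chloride side after 2 days (GTR1, adjusted p = 0.0486, and AT2G26690, adjusted p = 0.000419), against 0, 0 and 1. The block also raised the share of all probe sets called. On uniform plates this went from 3.4% to 8.61% over the times and from 2.04% to 7.39% after 2 hours. On split plates it went from 1.17% to 2.34% over the times and from 0.798% to 1.92% after 2 days. On the chloride side after 2 days it went from 0.93% to 2.54%. The block changed no other count by more than 1.5 times, and it could not be fitted between times, where the numbers are nested.

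With the chloride groups exchanged the count on uniform plates was 0 over the times, 0 after 2 days, 0 for the interaction after 2 days and 0 for the change of the uniform response between 2 days and 2 hours, and it was 1 on split plates after 2 days and 1 for the change of the split response. AT2G26690 then reversed after 2 days to 0.95 on split plates (adjusted p = 0.00965), −1.05 on the chloride side (adjusted p = 0.00753) and 0.74 for the interaction (adjusted p = 0.576). This follows from the exchange itself. The uniform count over the times was 0 with a filter at the median, which tests 6 of the 10 and leaves AT1G27040 out, 0 with only the arrays compared, and 2 without the 2 hour arrays. The methods' test gave 1 after 8 hours on uniform plates, and no filter gave 0 for the interaction after 2 days. Between 8 hours and 2 days the median filter left 3 and the 3′ to 5′ index 2, and between 2 hours and 2 days the index left 3. Apart from the exchange, the median filter and the missing arrays, the cause was not tested.

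Leaving out each array in turn gave 0 to 2 on uniform plates over the times, 0 to 1 on the chloride side after 2 days, 0 to 1 for the interaction after 2 days, and 3 to 4, 5 to 7 and 4 to 6 for 8 hours against 2 hours, 2 days against 8 hours and 2 days against 2 hours. Without replicate 2 of C.KCl after 8 hours the uniform count over the times was 2. Among the gene and comparison pairs called in any setting, 834 values under an alternative kept their side of the threshold. Any of these 834 that changed sign were uncalled and lay within 1 SE of the main value. A further 37 lost the call, 25 gained it, and 3 reversed as given. The other 2, neither called, changed sign by more than 1 SE.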
